A study of Mus musculus with 32 samples.

Results

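The genes described here lie around Jarid2 on mouse chromosome 13. They were chosen by position and by abundance: a gene body midpoint between 24.8 and 64.8 Mb (mm10), Jarid2 itself left out, and a summed count of at least 200 over the 12 Vav libraries. This gave 194 genes of the 536 in that window, out of 41388 listed in all. Of them 68 lay on the lower-coordinate side of Jarid2 (chr13:44729474-44921643) and 126 on the other side. The summed count was the only measured value in the rule. The genes just inside it were Irf4 with 205 counts, Tspan17 with 213 and Platr25 with 221, and those just outside were 9330162012Rik with 169, Gm21963 with 166 and Ogn with 161. A further 76 genes of the window had no count in any Vav library.

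RNA was sequenced from haematopoietic stem cells (HSC: Lin-, cKit+, Sca1+, CD150+, CD48-) and multipotent progenitors (MPP), which by the same gate lack CD150. All mice were C57BL/6, and each library came from pooled mice. The Vav cohort had wild-type controls and Jarid2-KO mice, both 8 weeks old and both labelled with the Vav-CRE driver, with 3 libraries for each genotype and cell type. Vav-CRE acts across the blood lineages from early life. The Mx1 cohort, aged 10 weeks and 2 months past pIpC injection, which induces Mx1-CRE in blood cells and in other interferon-responsive tissues, had wild-type controls, Jak2V617F mice and Jak2V617F mice that also carried Jarid2-KO (the double mutant), with 2 libraries for each genotype and cell type. The series' design text names Jarid2-KO alone in place of Jak2V617F in this cohort, and the sample labels were followed.

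Jarid2 is a subunit of Polycomb repressive complex 2 (PRC2), which places the repressive mark H3K27me3 on histones, often at promoters rich in CpG. It helps to bring the complex to its targets. Jak2V617F is an activating kinase mutation found in myeloproliferative neoplasms. The genes around Jarid2 on chromosome 13 are a mixed set, with housekeeping, immune and developmental genes side by side. Several of the developmental ones, such as Foxc1 and Tfap2a, are well-known Polycomb targets in cells that do not express them.

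Some libraries stood apart from their labels. Jarid2 itself was not lower in the libraries labelled knockout: it was at 80.2, 83.0 and 144 CPM (counts scaled to the library total) in Jarid2-KO HSC and at 95.0, 77.6 and 109 CPM in control HSC, and counts over the whole gene do not check the loss of some of its exons. In the Mx1 cohort Slamf1, which encodes CD150, was at 12.7 and 5.04 CPM in the Jak2V617F HSC libraries, at 30.8 and 124 CPM in the double mutant HSC and at 0.196 and 5.21 CPM in the wild-type HSC, against 57.4 to 66.1 CPM in Vav control HSC. The summed level of 9 granulocyte and monocyte markers (Mpo, Elane and others) was 18626 to 24178 CPM in Jak2V617F HSC and 1764 to 2605 CPM in double mutant HSC, and 11396 to 14470 against 3034 to 5710 CPM in MPP; none of the 9 was at 0. Heart muscle transcripts took 0.506 to 8.96% of counts in the Mx1 libraries and at most 0.0032% in the Vav libraries. In the Vav cohort the granulocyte and monocyte sum was 858 to 2348 CPM in control and 2332 to 5868 CPM in Jarid2-KO HSC, and 3151 to 4405 against 4662 to 15986 CPM in MPP. Replicate 1 of the Jarid2-KO MPP stood apart from the rest, with Xist at 1.82 CPM where the other Vav libraries had 191 to 376 CPM. The part of these differences in the results below was not tested except where a value is given. In bulk samples fewer cells of a type and less RNA per cell cannot be told apart.

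In both Vav cell types 4 genes of the region passed the test: Ssr1 fell, and Dsp, Fbp1 and Zfp367 rose. Dtnbp1 rose and Ctla2b fell in HSC, and Ror2 rose in MPP. The test was edgeR's quasi-likelihood test, with p adjusted by the Benjamini-Hochberg method over 15818 genes at a threshold of 0.05. It called 6 of the 194 genes in HSC (3.09%), where 0.569% of all genes tested were called, and 5 of 194 in MPP (2.58%), where 0.948% were called. In HSC 4 were higher and 2 lower (all genes 0.253% and 0.316%), and in MPP 4 were higher and 1 lower (all genes 0.512% and 0.436%). DESeq2 called 17 in HSC (8.76%, all genes 4.38%) and 28 in MPP (14.4%, all genes 6.98%), and "called" below means by edgeR unless DESeq2 is named. With each library left out in turn, edgeR called 2 to 4 in HSC (1.03% to 2.06%, all genes 0.0849% to 0.281%). In MPP it called 3 to 27, where 27 (13.9%, all genes 9.03%) were called without Jarid2-KO replicate 3 and 3 (1.55%, all genes 0.207%) without control replicate 3. These 4 genes are shown by the 250 bases upstream of the start of transcription, because PRC2 often acts at CpG-rich promoters and because they moved in both cell types. The sequences are RefSeq's on GRCm38.p6, read 5′ to 3′ on the strand of the gene, with each CG in capitals. Ssr1 spans chr13:37994209-37994458 on the minus strand, Dsp chr13:38151044-38151293 on the plus strand, Zfp367 chr13:64153200-64153449 on the minus strand and Fbp1 chr13:62888283-62888532 on the minus strand.
Ssr1: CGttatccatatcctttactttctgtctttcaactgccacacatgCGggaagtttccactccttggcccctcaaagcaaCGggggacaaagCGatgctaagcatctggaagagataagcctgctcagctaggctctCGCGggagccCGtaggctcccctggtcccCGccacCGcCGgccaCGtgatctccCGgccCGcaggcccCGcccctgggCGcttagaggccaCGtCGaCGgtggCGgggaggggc
Dsp: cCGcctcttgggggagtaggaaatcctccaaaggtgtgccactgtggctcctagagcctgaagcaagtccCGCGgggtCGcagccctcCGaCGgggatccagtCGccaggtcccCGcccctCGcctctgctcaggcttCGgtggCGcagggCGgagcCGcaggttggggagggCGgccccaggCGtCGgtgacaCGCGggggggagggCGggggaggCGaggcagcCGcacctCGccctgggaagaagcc
Zfp367: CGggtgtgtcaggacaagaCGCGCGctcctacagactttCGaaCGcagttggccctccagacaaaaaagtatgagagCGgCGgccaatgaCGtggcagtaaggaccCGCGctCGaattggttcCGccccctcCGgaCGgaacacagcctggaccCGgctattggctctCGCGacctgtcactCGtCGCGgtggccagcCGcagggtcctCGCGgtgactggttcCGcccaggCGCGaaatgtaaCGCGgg
Fbp1: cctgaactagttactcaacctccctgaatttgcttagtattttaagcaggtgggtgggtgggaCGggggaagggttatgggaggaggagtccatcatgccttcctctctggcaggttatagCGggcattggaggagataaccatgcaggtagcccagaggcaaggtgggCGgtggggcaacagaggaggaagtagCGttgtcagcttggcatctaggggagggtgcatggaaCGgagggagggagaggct
The Ssr1 window held 19 CG and had an observed to expected CG ratio of 0.758, Dsp 22 and 0.679, and Zfp367 29 and 1.13. Fbp1 was poor in CG, with 5 and a ratio of 0.297. A ratio of at least 0.6 was found in 73.5% of the 151 genes of the region that matched a RefSeq promoter, and in 68.9% of 9196 other genes of the same summed count. The 250-base windows of genes that changed therefore included both kinds.

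Ssr1 encodes a subunit of the translocon-associated protein complex, which helps nascent secretory proteins into the endoplasmic reticulum. Its level was 1982, 2450.0 and 1458 CPM in the control HSC libraries and 350.3, 394.5 and 443.6 CPM in the Jarid2-KO HSC. The MPP libraries had 1446, 1443 and 1540.1 CPM in control and 306, 323 and 375 CPM in Jarid2-KO. The groups were far apart in both cell types, with no value shared. The log2 fold change was -2.39 (SE 0.24, edgeR adjusted p = 0.000949) in HSC and -2.14 (SE 0.23, edgeR adjusted p = 0.00118) in MPP. Per kilobase of gene length it was the most abundant gene of the region in control HSC, at 211 RPKM (CPM per kilobase of gene), where the median gene of the region had 6.83. In Jarid2-KO HSC it was at 42.6 RPKM and ranked 30 of 194.

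Dsp encodes desmoplakin, which anchors intermediate filaments to desmosomes in epithelia and heart. Its level was 0.808, 0.233 and 1.21 CPM in control HSC and 23.9, 16.6 and 20.4 CPM in Jarid2-KO HSC. MPP had 0.408, 1.29 and 0.529 CPM in control and 12.2, 14.0 and 9.55 CPM in Jarid2-KO. It was the least abundant of the 194 genes in control HSC, at 0.078 RPKM, and reached 2.11 RPKM in Jarid2-KO HSC, where it ranked 160 of 194. The log2 fold change was 4.66 (SE 0.52, edgeR adjusted p = 0.00132) in HSC and 4.01 (SE 0.50, edgeR adjusted p = 0.00184) in MPP. Dsp met the count rule through the Jarid2-KO libraries, which held 1791 of its counts against 95 in controls.

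Ssr1 and Dsp lie 157.1 kb apart, 6.84 and 6.65 Mb below Jarid2, and changed in opposite directions. Between them lie Cage1 and Riok1, at log2 fold changes of 0.66 and -0.36 in HSC and 0.98 and -0.40 in MPP, none past the edgeR test. Of the 12 other genes of the region within 1 Mb of Ssr1, edgeR called Dsp alone in either cell type; DESeq2 also called Cage1 in MPP (1.00, DESeq2 adjusted p = 0.0272), as did edgeR without a filter on low counts (0.97, adjusted p = 0.0162), which called Ly86 in HSC (1.57, adjusted p = 0.033). The 11 neighbours other than Dsp ranged from -1.52 to 1.52 in HSC, where Ly86 was highest, and from -0.40 to 0.98 in MPP, where Cage1 was highest.

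Zfp367 encodes a zinc finger transcription factor and Fbp1 the gluconeogenic enzyme fructose-1,6-bisphosphatase. Zfp367 was at 112, 164 and 127 CPM in control HSC and at 332.0, 379.7 and 490.6 CPM in Jarid2-KO HSC. The MPP values were 98.7, 109 and 99.0 CPM in control and 232, 303 and 448 CPM in Jarid2-KO. Its log2 fold changes were 1.5 (SE 0.25, edgeR adjusted p = 0.0193) and 1.69 (SE 0.25, edgeR adjusted p = 0.00579). Fbp1 was at 57.0, 74.4 and 35.4 CPM in control HSC and at 171.5, 196 and 135 CPM in Jarid2-KO HSC. Those of MPP were 82.3, 99.4 and 66.5 CPM in control and 316, 249 and 307 CPM in Jarid2-KO. The log2 fold changes were 1.51 (SE 0.27, edgeR adjusted p = 0.0275) and 1.83 (SE 0.28, edgeR adjusted p = 0.00593). Neither gene's groups overlapped in either cell type. They lie 18.05 and 19.32 Mb above Jarid2, with 1244.7 kb between them, and of the 12 other genes of the region within 1 Mb of each, edgeR called none. DESeq2 called none within 1 Mb of Fbp1, and near Zfp367 it called Habp4 (1.5, DESeq2 adjusted p = 0.0124) and Cdc14b (0.75, DESeq2 adjusted p = 0.0388) in MPP. Without a filter on low counts edgeR also called Habp4 in MPP (1.49, edgeR adjusted p = 0.0378). Calls in HSC depended on single libraries. That of Zfp367 was lost without control replicate 1 or 3 or Jarid2-KO replicate 2 or 3 (edgeR adjusted p = 0.0302 to 0.0872 over the 6 libraries left out), and that of Fbp1 without control replicate 1 or 3 or Jarid2-KO replicate 1 or 2 (0.019 to 0.152). In MPP the call of Fbp1 was lost without control replicate 3 (edgeR adjusted p = 0.0522), and that of Zfp367 when only the MPP groups were fitted (1.68, edgeR adjusted p = 0.0696).

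**Figure D1:**
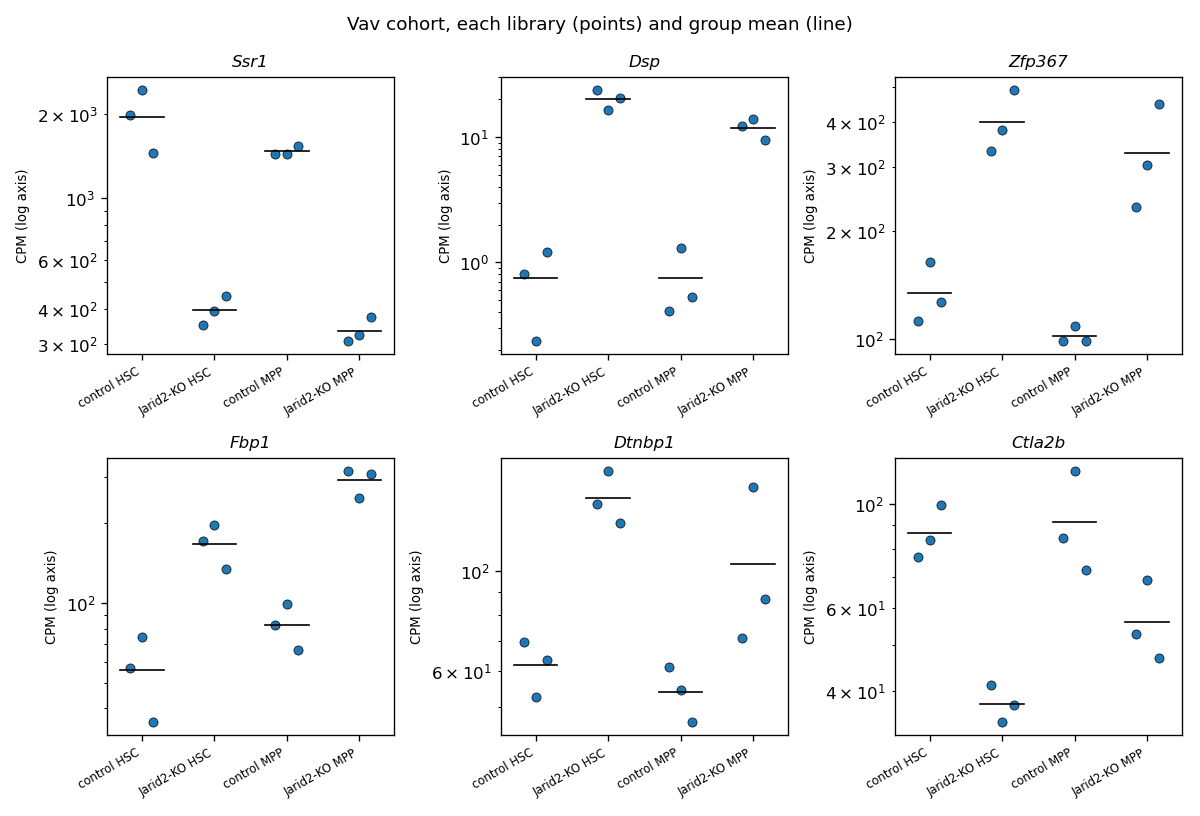
CPM on a log axis of 6 genes in each Vav library (points), with the group mean (line). The control and Jarid2-KO points of Ssr1, Dsp, Zfp367 and Fbp1 do not meet in HSC or in MPP, and those of Ctla2b and Dtnbp1 lie closer together in MPP than in HSC.

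The genes nearest to Jarid2 were described next. Dtnbp1 encodes dysbindin, a subunit of the BLOC-1 complex of endosome sorting. Its gene body lies 436 bases beyond the higher-coordinate end of Jarid2. Dtnbp1 is on the minus strand, so the near edge is its own end, and its transcription starts on the far side, near chr13:45002096. It was at 69.5, 52.5 and 63.5 CPM in control HSC and at 141, 168 and 128 CPM in Jarid2-KO HSC, with a log2 fold change of 1.18 (SE 0.24, edgeR adjusted p = 0.045). In MPP it was at 61.1, 54.4 and 46.1 CPM in control and 71.1, 154 and 86.9 CPM in Jarid2-KO, with 0.94 (SE 0.24, edgeR adjusted p = 0.0777). The groups did not overlap in either cell type, and the HSC call was lost when any 1 of the 6 HSC libraries was left out (edgeR adjusted p = 0.0721 to 0.236) and with the replicate number as a block (1.15, edgeR adjusted p = 0.0768). In MPP the call was gained without Jarid2-KO replicate 1 (edgeR adjusted p = 0.0151) or replicate 3 (edgeR adjusted p = 0.0302), and DESeq2 made it as well (0.95, DESeq2 adjusted p = 0.0116). Mylip and Gmpr, the next genes on that side, were at -0.49 and 0.09 in HSC and -0.60 and 0.37 in MPP. On the other side Cd83, Mcur1 and Ranbp9 were at 0.03, -0.30 and 0.30 in HSC and at 0.06, -0.07 and 0.23 in MPP. None of these 5 passed the test in edgeR or in DESeq2. Atxn1, a transcriptional regulator chosen after its values were seen, lies 0.93 Mb above Jarid2; its groups did not overlap in either cell type, at -1.19 (edgeR adjusted p = 0.112) and -1.11 (edgeR adjusted p = 0.0986). Inside Jarid2 itself lies 1 gene of the set, the small nuclear RNA gene Gm22213, also picked after its values were seen. It was at 1.91, 5.88 and 3.27 CPM in control HSC and 0.897, 0.0418 and 0.833 CPM in Jarid2-KO HSC, with edgeR adjusted p of 0.124 in HSC and 0.0977 in MPP. DESeq2 called both genes lower in both cell types, Atxn1 with DESeq2 adjusted p of 0.0197 and 0.0266 and Gm22213 with 0.00714 and 0.00802. Gm22213 met the count rule through the control libraries, which held 395 of its counts against 50 in Jarid2-KO.

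In the edgeR fit used for the calls, Ctla2b and Ror2 were each called in 1 cell type. Ctla2b, which encodes a cysteine protease inhibitor and has a near-identical copy, Ctla2a, beside it, was at 76.9, 83.6 and 99.4 CPM in control HSC and at 41.1, 34.3 and 37.4 CPM in Jarid2-KO HSC. The log2 fold change was -1.27 (SE 0.21, edgeR adjusted p = 0.0193), and in MPP it was -0.70 (SE 0.20, edgeR adjusted p = 0.101). Reads may be split between the copies, and Ctla2a was at -0.44 in HSC and 0.08 in MPP. Ror2, a receptor for Wnt5a, was at 4.53, 6.64 and 3.78 CPM in Jarid2-KO HSC and at 0.22, 0.931 and 0.147 CPM in control, with 3.44 (SE 0.84, edgeR adjusted p = 0.0868). In MPP it was at 4.14, 2.23 and 2.20 CPM in Jarid2-KO and 0.0453, 0.397 and 0 CPM in control, with 4.30 (SE 0.93, edgeR adjusted p = 0.0434). Ror2 rests on 447 counts in the Jarid2-KO libraries and 32 in the controls, and met the count rule through the former. In HSC, DESeq2 called it (3.44, DESeq2 adjusted p = 0.000503), as did edgeR without a filter on low counts (3.49, edgeR adjusted p = 5.55e-05). So did edgeR with only the HSC groups fitted (3.45, edgeR adjusted p = 0.0226). The MPP call of Ror2 was lost without control replicate 1 or 3 or Jarid2-KO replicate 1 or 2 (edgeR adjusted p = 0.0197 to 0.181 over the 6 libraries) and when only the MPP groups were fitted (edgeR adjusted p = 0.178). The HSC call of Ctla2b was lost in 5 of 6 such fits, all but that without control replicate 1 (edgeR adjusted p = 0.0301 to 0.105). The difference of the Jarid2-KO effect between MPP and HSC was tested directly by edgeR. No gene of the region passed (0 of 194), none of all genes did (0.0%), and 8 of the 194 had an unadjusted p under 0.05 (4.12%, all genes 2.65%). DESeq2 called none of the 194 (all genes 0.0216%), and edgeR without a filter on low counts called 1, F13a1 (0.515%, all genes 0.228%).

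**Figure D2:**
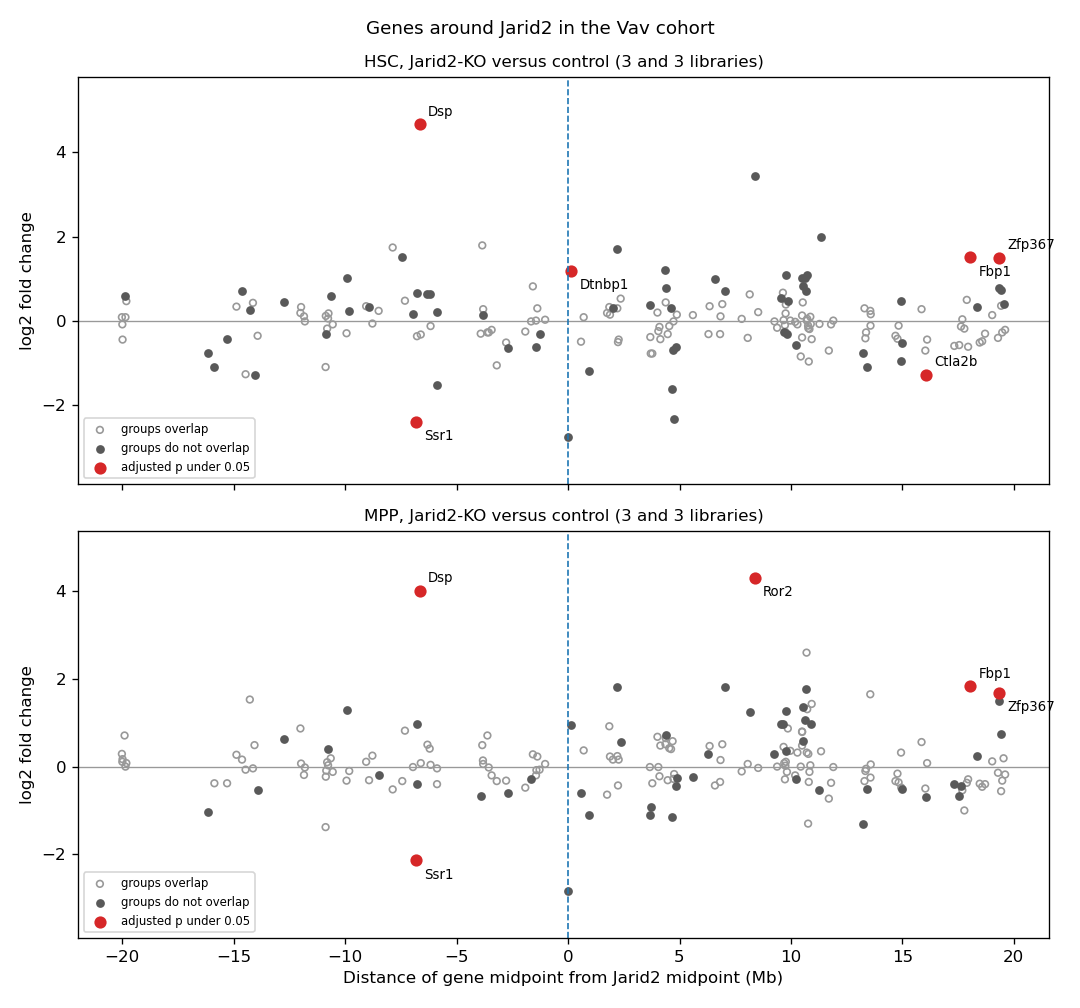
Log2 fold change of each of the 194 genes against the distance of its midpoint from that of Jarid2 in Mb (dashed line at 0), in HSC above and MPP below. Red points passed an adjusted p of 0.05, filled grey points had groups that did not overlap, and the called genes lie at several distances on both sides, most neighbours being near 0.

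By distance from Jarid2, edgeR called genes both near and far. Under 2 Mb lay 16 genes, of which 1, Dtnbp1, was called in HSC (6.25%) and 0 in MPP. At 2 to 5 Mb lay 36 genes, and edgeR called none in either cell type. At 5 to 10 Mb lay 48 genes, with 2 called in HSC (4.17%) and 3 in MPP (6.25%), and at 10 to 20 Mb lay 94, with 3 (3.19%) and 2 (2.13%). The HSC share was thus highest in the nearest class, where it rests on 1 gene. DESeq2 called 3, 3, 4 and 7 genes in these classes in HSC (18.8%, 8.33%, 8.33% and 7.45%) and 3, 2, 10 and 13 in MPP (18.8%, 5.56%, 20.8% and 13.8%). Of all genes DESeq2 called 4.38% in HSC and 6.98% in MPP. Its 3 genes under 2 Mb were Gm22213, Dtnbp1 and Atxn1 in each cell type, and those at 2 to 5 Mb were Nhlrc1, Ninj1 and Susd3 in HSC and Nhlrc1 and Susd3 in MPP. Of these, Gm22213 met the count rule through the control libraries, where it was high, as given above. The edgeR calls at 5 to 10 Mb were Ssr1 and Dsp in HSC, with Ror2 besides in MPP. Dsp and Ror2 met the count rule through the Jarid2-KO libraries, where they were high, as given above. They also count in the shares of called genes given below. The median absolute log2 fold change in HSC was 0.30 under 2 Mb, 0.41 at 2 to 5 Mb, 0.35 at 5 to 10 Mb and 0.39 at 10 to 20 Mb, and in MPP 0.32, 0.41, 0.34 and 0.37. The nearest class was not alike on both sides: the 8 genes above Jarid2, among them Gm22213, Dtnbp1 and Atxn1, had medians of 0.41 in HSC and 0.78 in MPP, and the 8 below it 0.28 and 0.22. The groups did not overlap for 37.5% and 50.0% of the genes above and for 25.0% and 12.5% of those below, and with 8 genes a side this is a description. Over all 194 genes it was 0.36 in both cell types. On chromosome 13 outside the window, 305 genes of the same summed count had 0.32 and 0.34, and 13050 tested genes on other chromosomes had 0.35 and 0.36. The typical size of change was thus close to that elsewhere, while 3.09% and 2.58% of the region's genes were called, against 0.984% and 1.97% on the rest of chromosome 13 and 0.613% and 1.03% on other chromosomes. Genes called in the region include those for which the region was singled out, so no test of this difference was made.

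Separation of the libraries was counted over called and uncalled genes alike. The Jarid2-KO and control libraries did not overlap for 42 genes that were higher and 24 that were lower in HSC, which is 21.6% and 12.4% of 194, where 16.2% and 10.7% of all genes were so, the lower share being near that of all genes. In MPP 28 were higher and 26 lower, 14.4% and 13.4%, where 9.07% and 12.6% of all genes were so, again close for the lower genes. All genes tested include genes of fewer counts. Counted in either direction, 34.0% of the region's genes did not overlap in HSC and 27.8% in MPP. Among tested genes of the same summed count this was 28.3% and 22.5% on other chromosomes, and 22.3% and 25.9% on chromosome 13 outside the window. In both cell types and in the same direction 19 were higher (9.79%, all genes 4.45%) and 12 lower (6.19%, all genes 4.06%). Among the 19 were Susd3, Cage1, Cdc14b and Fam217a, named because they were also separate in the Mx1 comparisons below. None of these 4 was called by edgeR in either cell type, and DESeq2 called Susd3 in both (DESeq2 adjusted p = 0.0151 and 0.0196) and Cage1, Cdc14b and Fam217a in MPP (DESeq2 adjusted p = 0.0272, 0.0388 and 0.0128). Susd3 was at 75.8, 82.4 and 64.8 CPM in control HSC and 146, 151 and 107 CPM in Jarid2-KO HSC (0.78, edgeR adjusted p = 0.095). The log2 fold changes of the 2 cell types had a Spearman correlation of 0.64 over the 194 genes and of 0.62 over all 15818; the libraries of both cell types were made from the same genotypes, and the correlation is a description.

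Genes were also grouped by role, from lists drawn up for the region. Of 22 blood and immune regulators 21 were in the set, 1 was called lower in HSC (Ctla2b) and none in MPP, and the median log2 fold change was 0.01 in HSC and -0.11 in MPP, against -0.03 and 0.02 for all genes. Of 17 developmental factors and signals, such as Foxc1, Tfap2a and Msx2, only Dsp, Ptch1 and Sox4 met the count rule. Dsp was called higher in both cell types, and the median of the 3 was -0.30 and -0.38. Of the 16 symbols of the chromatin and nuclear protein list 14 were found in the window and 13 in the set, with Zfp367 called higher in both cell types and medians of -0.07 and 0.16. Of 22 metabolism and secretory pathway genes 20 were in the set, with Fbp1 called higher and Ssr1 lower in both cell types and medians of 0.11 and 0.12. Apart from these genes, edgeR called no member of the lists in either cell type, and DESeq2 also called Sox4 in HSC (-1.10), Ctla2b in MPP (-0.69) and Grk6 in both (1.02 and 1.06).

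In the Mx1 cohort, the double mutant was compared with Jak2V617F in separate libraries. No gene of the region passed the test in HSC (0 of 193) or in MPP (0 of 193), and no gene of all 19616 did (0.0% in each). At an unadjusted p under 0.05 were 14 of the 193 in HSC (7.25%, all genes 4.68%) and 7 in MPP (3.63%, all genes 3.0%), and DESeq2 called 4 of 189 in HSC (2.12%, all genes 2.01%) and 0 of 186 in MPP (all genes 0.472%). The 4 were Ly86, Hk3 and Tifab, all lower, and Ctla2a, higher, and their share was near that of all genes. Zfp367 and Ssr1 had groups that did not overlap in either cell type. Zfp367 was at 197.3 and 280.3 CPM in double mutant HSC and at 58.4 and 51.5 CPM in Jak2V617F HSC. In MPP it was at 134 and 360.0 CPM in the double mutant and 48.5 and 55.3 CPM in Jak2V617F. The log2 fold changes were 1.84 (SE 0.55, edgeR adjusted p = 0.409) and 2.16 (SE 0.56, edgeR adjusted p = 0.752), and the wild-type controls were at 47.0 and 62.4 CPM in HSC and 35.4 and 62.1 CPM in MPP. Ssr1 was at 272 and 392 CPM in double mutant HSC and at 1101 and 1124 CPM in Jak2V617F HSC, a log2 fold change of -2.02 (SE 0.86, edgeR adjusted p = 0.984). In MPP Ssr1 was at 154 and 367 CPM against 501 and 844 CPM, with -1.45 (SE 0.85, edgeR adjusted p = 1.0). Its wild-type control libraries ranged from 418 to 2291 CPM.

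**Figure D3:**
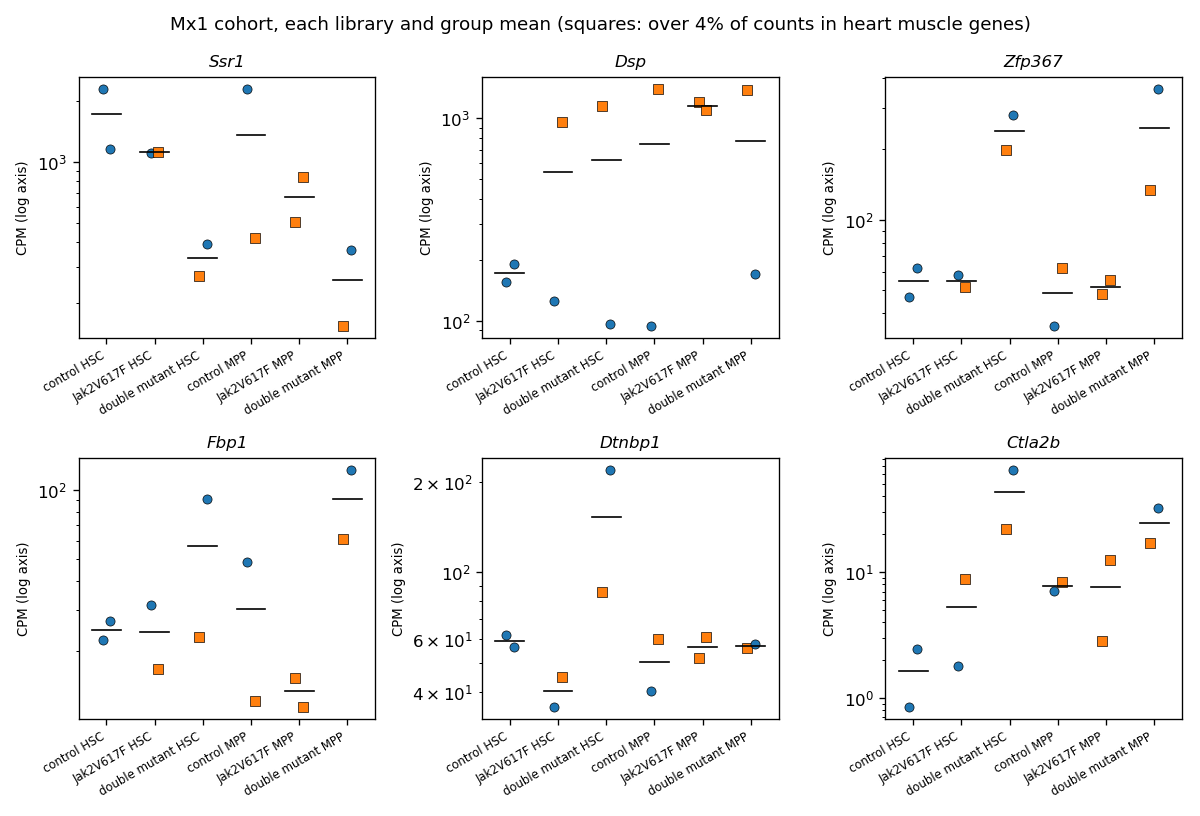
CPM on a log axis of the same 6 genes in each Mx1 library, with the group mean (line); orange squares are libraries with over 4% of counts in 20 heart muscle genes. Dsp follows the squares in every genotype, whereas the double mutant points of Zfp367 lie above, and those of Ssr1 below, the Jak2V617F points in both cell types.

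Dsp moved with heart muscle RNA in this cohort. It was at 955.8 to 1394 CPM in the 6 libraries with over 4% of counts in heart muscle genes and at 94.9 to 191 CPM in the other 6, and the double mutant and Jak2V617F groups overlapped in both cell types. With a term for these libraries in the fit, its log2 fold change was -0.31 in HSC and 0.36 in MPP, of opposite sign to 0.16 and -0.62 without it. Fbp1 was at 23.0 and 90.9 CPM in double mutant HSC against 31.7 and 16.6 CPM in Jak2V617F HSC, with overlap (0.87, SE 0.75). In MPP Fbp1 was at 61.0 and 122 CPM against 15.2 and 11.4 CPM, without overlap (2.69, SE 0.80, edgeR adjusted p = 1.0). Dtnbp1 was at 86.1 and 218.5 CPM in double mutant HSC against 35.7 and 44.9 CPM (1.62, SE 0.50, edgeR adjusted p = 0.435), and in MPP at 55.8 and 57.9 CPM against 51.7 and 60.8 CPM, where the groups overlapped. Ctla2b, lower in Jarid2-KO HSC of the Vav cohort, had higher values in every double mutant library, without passing the test: 21.9 and 64.9 CPM against 1.79 and 8.80 CPM in HSC, and 17.1 and 32.3 CPM against 2.85 and 12.4 CPM in MPP.

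With the heart muscle term, which leaves 5 residual degrees of freedom, 11 of 193 genes passed in HSC (5.7%, all genes 2.75%) and 5 in MPP (2.59%, all genes 0.591%). Heart muscle genes took 7.72 and 7.05% of counts in Jak2V617F MPP and 8.22 and 1.09% in double mutant MPP. In HSC it was 0.783 and 5.86% in Jak2V617F and 7.4 and 0.506% in the double mutant. The MPP groups were thus not balanced for heart muscle RNA. Zfp367 rose in both, at 1.85 (SE 0.35, edgeR adjusted p = 0.0013) and 1.93 (SE 0.38, edgeR adjusted p = 0.00512). Fbp1 rose in MPP at 1.90 (edgeR adjusted p = 0.0126) and Dtnbp1 in HSC at 1.59 (edgeR adjusted p = 0.0061). Gcnt2, which makes branched I antigen glycans, rose in both at 2.27 and 1.74, and Ctla2a and Phactr1 rose in HSC at 2.37 and 2.82. Serpinb1a, an inhibitor of neutrophil proteases, fell in both at -1.94 and -1.71, as did Hk3, a hexokinase of myeloid cells, at -2.72 and -2.01. Tifab fell in HSC at -3.52, and Tmem14c and Golm1 at -1.48 and -1.78; the predicted gene Gm2830 also rose there. Hk3 was at 39.9 and 44.0 CPM in double mutant HSC, 321 and 199 CPM in Jak2V617F HSC and 554 and 572 CPM in wild-type HSC of this cohort. Serpinb1a was at 184 and 347 CPM against 1163 and 602 CPM in HSC and at 146 and 349.8 CPM against 422 and 472 CPM in MPP. Gcnt2 was at 112 and 348 CPM against 42.9 and 27 CPM in HSC and at 98.4 and 268 CPM against 27.3 and 33.3 CPM in MPP, and its groups did not overlap. Serpinb1a, Hk3 and Tifab fell where the granulocyte and monocyte sum was lower, as given above, and the part of that in their change was not tested. The summed level of 5 erythroid markers also differed, at 45.2 to 95.0 CPM in double mutant HSC and 194.3 to 482.2 CPM in Jak2V617F HSC. In MPP it was 750.5 to 3127.9 CPM in the double mutant and 198.5 to 225.6 CPM in Jak2V617F. The part of this in the change of Tmem14c or of other genes was not tested. Ssr1 did not pass even so, at -2.03 (edgeR adjusted p = 0.29) in HSC and -2.08 (edgeR adjusted p = 0.676) in MPP.

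**Figure D4:**
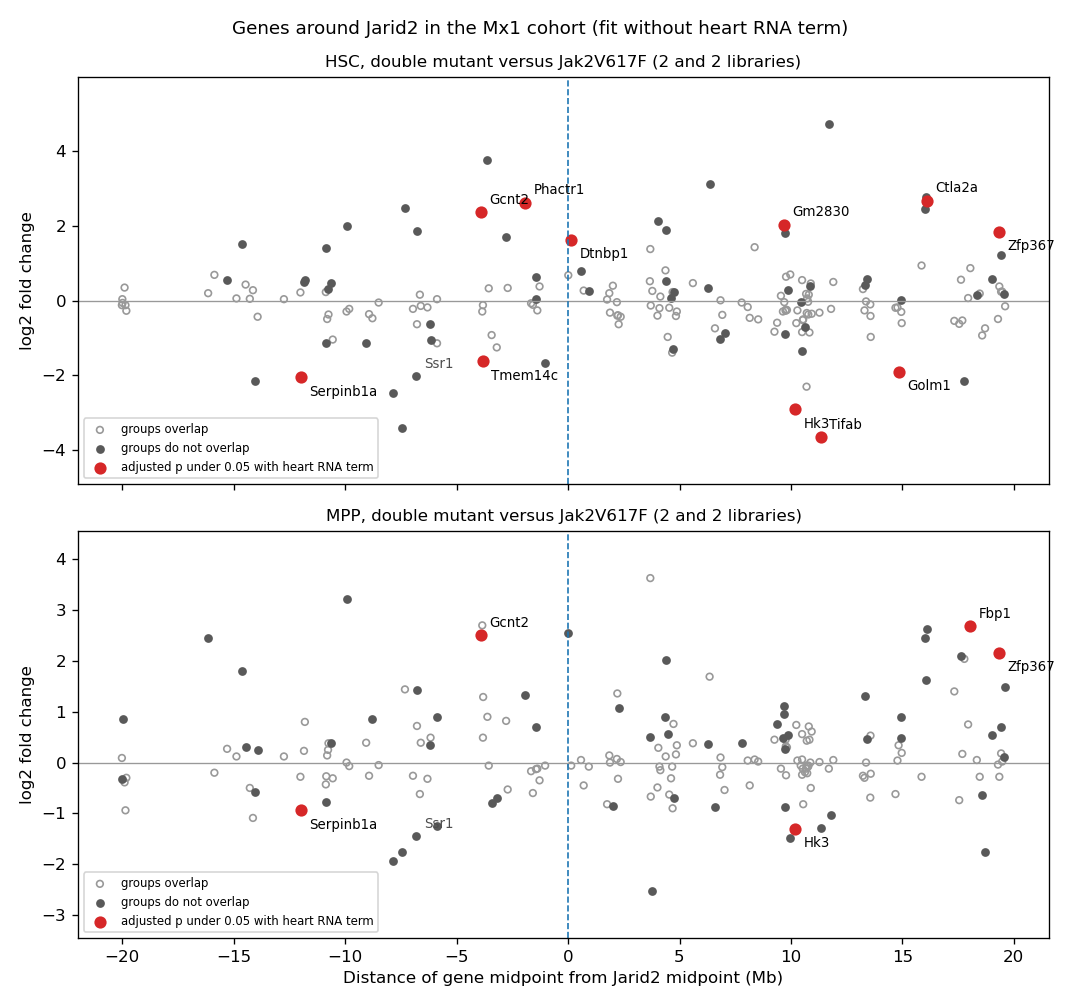
Log2 fold change in the Mx1 fit without the heart muscle term, double mutant versus Jak2V617F, against distance from Jarid2 in Mb, in HSC above and MPP below. Red points passed an adjusted p of 0.05 when the term was added; Zfp367 lies far right and above 0 in both panels, and Ssr1 below 0 in both.

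The double mutant and Jak2V617F libraries did not overlap for 43 genes that were higher and 21 that were lower in HSC, 22.3% and 10.9% of 193, where 17.4% and 10.0% of all genes were so. In MPP it was 42 and 21, 21.8% and 10.9%, where 16.9% and 15.4% were so. Heart muscle RNA was not balanced between these MPP groups, as given above. All genes tested include genes of fewer counts. Counted in either direction, 33.2% of the region's genes did not overlap in HSC and 32.6% in MPP. Among tested genes of the same summed count this was 30.3% and 33.5% on other chromosomes. On chromosome 13 outside the window it was 35.0% and 31.3%, so the region was near both. In both Mx1 cell types and in the same direction 21 were higher (10.9%, all genes 6.04%) and 7 lower (3.63%, all genes 3.03%). Across all 4 comparisons 5 genes, Zfp367, Susd3, Cage1, Cdc14b and Fam217a, were higher each time (2.59% of 193, all genes 0.479%). Ssr1 was the 1 gene that was lower each time (0.518%, all genes 0.118%). Fam217a rested on few counts in this cohort, 4 to 9 in each Jak2V617F library and 16 to 62 in each double mutant library. Over the region as a whole, the Spearman correlation of the log2 fold changes between the Vav and Mx1 comparisons, which share no library, was 0.02 over 193 genes in HSC and 0.02 in MPP, and over 15228 genes it was -0.01 and -0.08. With the heart muscle term in the Mx1 fit it was 0.0 and 0.2 over the 193 genes, and -0.01 and 0.05 over the 15228. By distance, the median absolute log2 fold change in Mx1 HSC was 0.30 under 2 Mb, 0.41 at 2 to 5 Mb, 0.48 at 5 to 10 Mb and 0.43 at 10 to 20 Mb, and 0.46 on other chromosomes. In Mx1 MPP it was 0.15, 0.65, 0.45 and 0.38, and 0.47 on other chromosomes. Of the lists by role, the blood and immune regulators had a median of -0.11 in Mx1 HSC and -0.20 in MPP, the chromatin and nuclear proteins -0.32 and 0.43, and the metabolism and secretory genes -0.18 and 0.05, against -0.01 and -0.04 for all genes tested.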

How the data were processed

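RNA-seq tables of 24 libraries were read. The 8 H3K27me3 samples of the series were not analysed here. The authors deposited, per the file headers, a raw count for each gene together with its CPM (scaled to the library total) and its RPKM (CPM per kilobase of gene); both were recomputed from the counts and differed by at most 6.2e-11. Per the submitters' processing notes the tools were STAR 2.0.4, featureCounts 1.4.5, Subread, HTSeq 0.8.0 and Partek 6.6 on mm10, with roles not given in the sources used here. Total counts ranged from 10473535 to 27232379 over the Vav libraries and from 7852483 to 20724168 over those of Mx1. Counts were fitted per cohort in edgeR 4.0.16 (R 4.3.3, filterByExpr with minimum count 10 and total 15, TMM, robust quasi-likelihood, 8 and 6 residual degrees of freedom), since the cohorts were separate libraries with different Cre drivers. Between the cohorts 14573 genes list exons differently, but 0 of the 194 genes differed in span or in length. The pipeline was tested on simulated data. Replicates were pooled mice, and p-values measure the spread between pools. The labels' protocols describe the pools in different ways. The members, lists and marker genes were chosen with earlier results of these data known. Genes named by rule were the 5 that marked the region, those past the test, the 3 nearest on each side of Jarid2 and members of the lists by role; others were named after their values were seen, as neighbours or copies of these, as separate in all comparisons, or as called by DESeq2. The heart muscle list of 20 genes marks libraries with more than 4% of counts. Exons of 36 of the 194 genes overlap another gene. Alternatives were DESeq2 1.42.0 and its size factors, no filter, a summed count of 1000, the replicate block, only the groups compared, the heart muscle term, and leaving out each library.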

Additional observations from a re-analysis of the deposited data

Results flagged for a closer look

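Some named genes moved one way in every Vav library of a cell type and the opposite way in every Mx1 library of that cell type, as log2 fold changes of Jarid2-KO versus control and of double mutant versus Jak2V617F. The difference between cohorts was not tested, and the groups in each Mx1 comparison hold 2 libraries. The granulocyte and monocyte sum also ran opposite ways in the cohorts. In Vav HSC it was 2332 to 5868 CPM in Jarid2-KO against 858 to 2348 in control. In Mx1 HSC it was 1764 to 2605 CPM in the double mutant against 18626 to 24178 in Jak2V617F. The MPP sums ran in the same directions. The part of this in the values below was not tested.

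Ctla2b was at -1.27 in Vav HSC and 2.78 in Mx1 HSC, and at -0.70 in Vav MPP and 1.62 in Mx1 MPP. Gcnt2 was at -0.67 in Vav MPP and 2.51 in Mx1 MPP. Tifab was at 2.00 in Vav HSC and -3.65 in Mx1 HSC. Atxn1 was at -1.19 in Vav HSC and 0.26 in Mx1 HSC. Gm22213, the small RNA gene inside Jarid2, was at -2.84 in Vav MPP and 2.55 in Mx1 MPP, on few counts.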

How the results depend on the processing

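Ssr1 and Dsp kept their call and direction in both Vav cell types under every alternative and with each library left out. All 168 alternative values of 7 genes in the Vav comparisons kept their direction; 27 lost the call and 8 gained it. Counts of called genes moved with the processing. Shares of the region are given with those of all genes tested by the same fit. In Vav HSC the 6 became 22 without a filter (11.3%, all 2.55%), 17 with DESeq2 (8.76%, all 4.38%) and 11 with only the groups compared (5.67%, all 2.02%). With a library left out 2 to 4 were called there (1.03% to 2.06%, all 0.0849% to 0.281%). In Vav MPP the 5 became, in the same order, 24 (12.4%, all 4.02%), 28 (14.4%, all 6.98%) and 3 (1.55%, all 0.129%), and 3 to 27 with a library left out. The 27 came without Jarid2-KO MPP replicate 3 (13.9%, all 9.03%), and 7 came without replicate 1 (3.61%, all 0.935%). The cause was not tested. Without a filter many genes of few counts are tested, and among other genes of at least 200 counts 5.79% and 8.97% were called. For the difference between cell types 1 was called without a filter (0.515%, all 0.228%). In Mx1 HSC 5 were called without a filter (2.58%, all 0.827%), 4 with DESeq2 (2.12%, all 2.01%) and 11 with the heart muscle term (5.7%, all 2.75%), and in MPP 5 with that term (2.59%, all 0.591%). Scaling by DESeq2 size factors and a summed count of at least 1000 left the counts within 1.5 times.

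Same-numbered control and Jarid2-KO libraries of a cell type had correlated deviations of -0.254 to 0.129 in Vav. The numbers were therefore not taken to pair the genotypes. Whether same-numbered HSC and MPP libraries of a genotype are paired was not tested. With the replicate block 5 genes were called in Vav HSC (2.58%, all genes 0.284%), where Dtnbp1 lost its call. In Vav MPP 5 were called with it (2.58%, all genes 0.67%), and 0 elsewhere. In Mx1 HSC the value was -0.431, and a block with crossed numbers, added after seeing the data, called 0.

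Leaving out a library moved Dsp between -2.70 and 2.17, Fbp1 between -0.19 and 1.64 and Ror2 between -0.58 and 3.79 in Mx1 HSC, and Dsp between -2.84 and 0.20, Ror2 between -1.23 and 0.71 and Dtnbp1 between -0.17 and 0.05 in MPP, so their signs there rested on single libraries. With the replicate block Ror2 in MPP was -0.01. With the heart muscle term Dsp was -0.31 in HSC and 0.36 in MPP. Values of opposite sign also came without Jak2V617F HSC replicate 1 (Dsp -0.59), double mutant HSC replicate 1 (Dsp -2.70, Ror2 -0.58), double mutant HSC replicate 2 (Fbp1 -0.19), Jak2V617F MPP replicate 1 (Ror2 -0.17), Jak2V617F MPP replicate 2 (Dtnbp1 0.05), double mutant MPP replicate 1 (Ror2 -1.23) and double mutant MPP replicate 2 (Dsp 0.20). With 2 libraries a group, leaving out 1 assumes that the lone library varies like the others.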
